A study of Saccharomyces cerevisiae with 6 samples.

Results

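The genes of ergosterol synthesis and sterol uptake were followed in 3 strains of budding yeast that differed in a plasmid-borne oxidase. The set held 32 listed genes of 5449 measured S. cerevisiae genes: the enzymes from acetyl-CoA to ergosterol, their electron donors and scaffold proteins, the esterification enzymes, the regulators and the sterol importers. All 32 had 1 probe set each, and all were above background on all 6 arrays, where background was the 95th percentile of the probe sets designed for another organism. The AOX strain was the laboratory strain CEN.PK113-7D with pYX212-AOX, a plasmid for an alternative oxidase of mitochondria. The NOX strain carried pYX212-NOX, for an NADH oxidase of the cytosol, and the control strain carried pYX212 without an insert. The plasmid is known as a multicopy vector with the URA3 marker and the TPI1 promoter. All strains were grown in chemostats at the critical dilution rate on minimal medium with 10 g/L glucose, and each was measured on 2 Affymetrix Yeast Genome 2.0 arrays. Nothing in the labels tells whether replicate arrays were separate cultures, and the p-values then cover only array-to-array spread, possibly technical.

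Ergosterol is the main sterol of fungal membranes. Its synthesis starts with the mevalonate steps, which make farnesyl diphosphate, goes on to squalene, and closes the first sterol ring system only after squalene has been oxidised with molecular oxygen. Several later steps also use oxygen, together with heme or non-heme iron, so that yeast without air or heme has to import sterols. The zinc cluster factors Upc2 and Ecm22 sense sterols and drive many ERG genes, and surplus sterol is stored as esters in lipid droplets. The study addressed overflow metabolism under added NADH oxidation, and both added oxidases use molecular oxygen. The comparison asks how far the sterol genes differed among the strains.

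The intensities are the authors' deposited values on a linear scale, and the tests used log2(intensity + 16) after quantile normalization. Array medians over S. cerevisiae probe sets ranged between 511 and 543 in deposited intensity, and the background percentile between 27.1 and 43.5. URA3, the plasmid marker, had 6617 and 6269 in AOX and 8406 and 8673 in NOX, against 10310.5 and 10511 in control. The strains did not overlap there, and the cause was not tested. NOX replicate 1 stood apart: the mean log2 of its spiked hybridisation controls was 10.81, where the other arrays had 9.31 to 9.65, and that of its ribosomal RNA probe sets was 4.85, where the others had 5.57 to 6.77. On the normalized log2 scale the median absolute difference between replicates over the 32 genes was 0.06 in AOX, 0.13 in NOX and 0.03 in control. The part of these array differences in the results was not tested beyond leaving out arrays, and 2 arrays per strain bound how precise any value can be. The transgenes themselves were not measured here, and differences in growth rate between strains cannot be told apart from differences due to the plasmids. In bulk cultures, a change of RNA per cell and a change in the share of cells that express a gene cannot be told apart either.

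No sterol gene passed the test against control, and 4 passed between the oxidase strains. None of the 32 differed by 2-fold or more in any comparison. Against control, limma called none of them in NOX at a Benjamini-Hochberg adjusted p below 0.05, where 3.71% of all 5498 probe sets were called (2.8% higher and 0.909% lower). None was called in AOX, where 3.58% of all were (2.55% higher and 1.04% lower). At an unadjusted p below 0.05 there were 7 of 32 in NOX and 5 of 32 in AOX, against 1224 and 753 of all 5498 probe sets. The 95% intervals, which were not adjusted for the number of genes, stayed between a fold of 0.676 (ARE2) and 1.47 (UPC2) in NOX and between 0.762 (CYB5) and 1.36 (ERG29) in AOX. These intervals and the p-values took the spread of a gene as equal in all strains. Over all probe sets, the SD of the replicate difference was 0.203 in NOX, 0.137 in AOX and 0.0517 in control. Between the oxidase strains, 4 of 32 genes were called, or 12.5%, against 8.38% of all probe sets. ARE2 was higher in AOX than in NOX, where 4% of all probe sets were higher, and ERG28, CYB5 and ERG7 were lower, as were 4.38% of all.

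**Figure D1:**
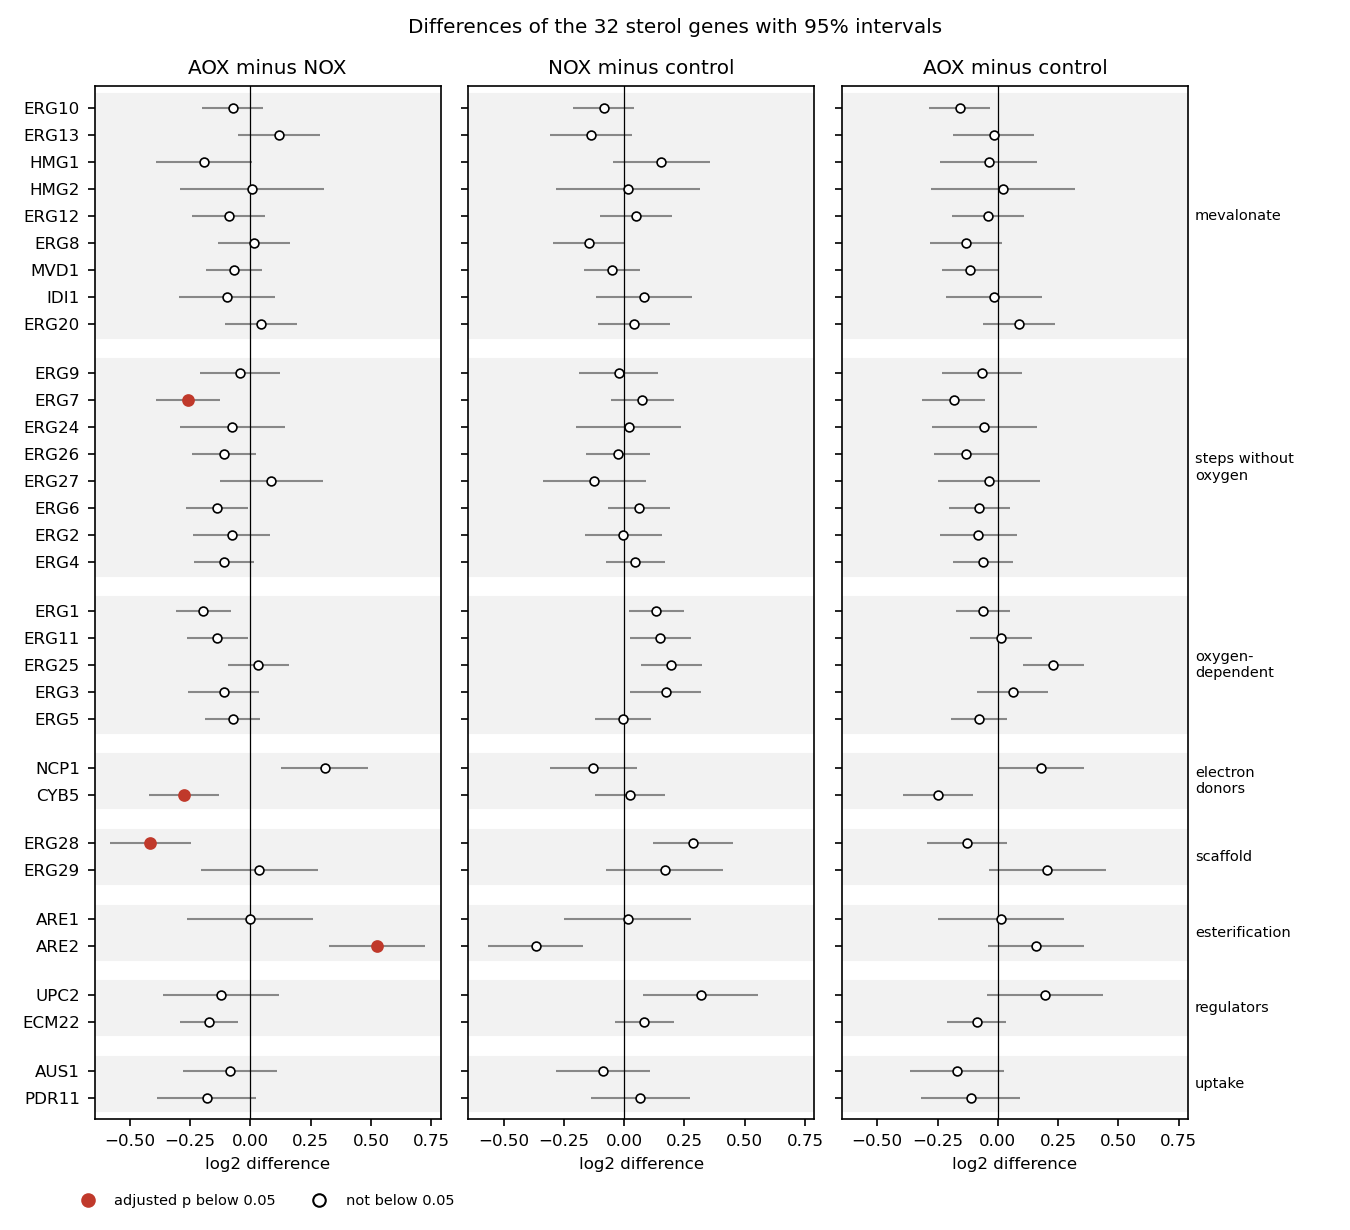
Log2 differences of the 32 genes (points) with 95% intervals (lines) for AOX minus NOX, NOX minus control and AOX minus control, grouped by role, with n = 2 arrays per strain. Filled red points passed an adjusted p below 0.05, which ARE2, ERG28, CYB5 and ERG7 did between AOX and NOX and no gene did against control.

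The median absolute log2 difference of the 32 genes was 0.0840 in AOX against control, 0.0833 in NOX against control and 0.103 between AOX and NOX, and over all probe sets it was 0.0681, 0.0929 and 0.0897. With signs kept, in AOX against control the median log2 difference of the 32 genes was -0.06, and -0.00 for all probe sets. In NOX against control it was 0.03, and -0.00 for all probe sets. Between AOX and NOX it was -0.08, against 0.01 for all probe sets. The signs held under each of the scalings tried, but the sizes did not. On the deposited values the median was 0.01 in NOX against control and -0.05 between AOX and NOX, and without NOX replicate 1 it was 0.06 in NOX against control. The comparisons of AOX and of NOX with control share the control arrays.

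More genes than these lay outside the range of the other strain on the normalized scale, as did 58.2% of all probe sets for AOX against control, 55.5% for NOX against control and 46.2% for AOX against NOX. On both AOX arrays 17 of the 32 genes (53.1%) were below both control arrays, as were 29.4% of all probe sets, and 7 (21.9%) were above both, as were 28.7% of all. On both AOX arrays 16 (50%) were below both NOX arrays, against 21.5% of all probe sets, and 2 (6.25%) were above, against 24.7% of all. On the deposited values without normalization that split was 8 below and 5 above, and when scaled by the S. cerevisiae median 11 and 5. With an array left out such counts can only stay or rise, so those splits are not given. The shares over all probe sets were not computed under the other scalings. In NOX against control 12 genes (37.5%) were above both control arrays and 6 (18.8%) below, against 27% and 28.4% of all probe sets. On the deposited values these were 8 above and 9 below, and when scaled by the S. cerevisiae median 11 and 9.

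**Figure D2:**
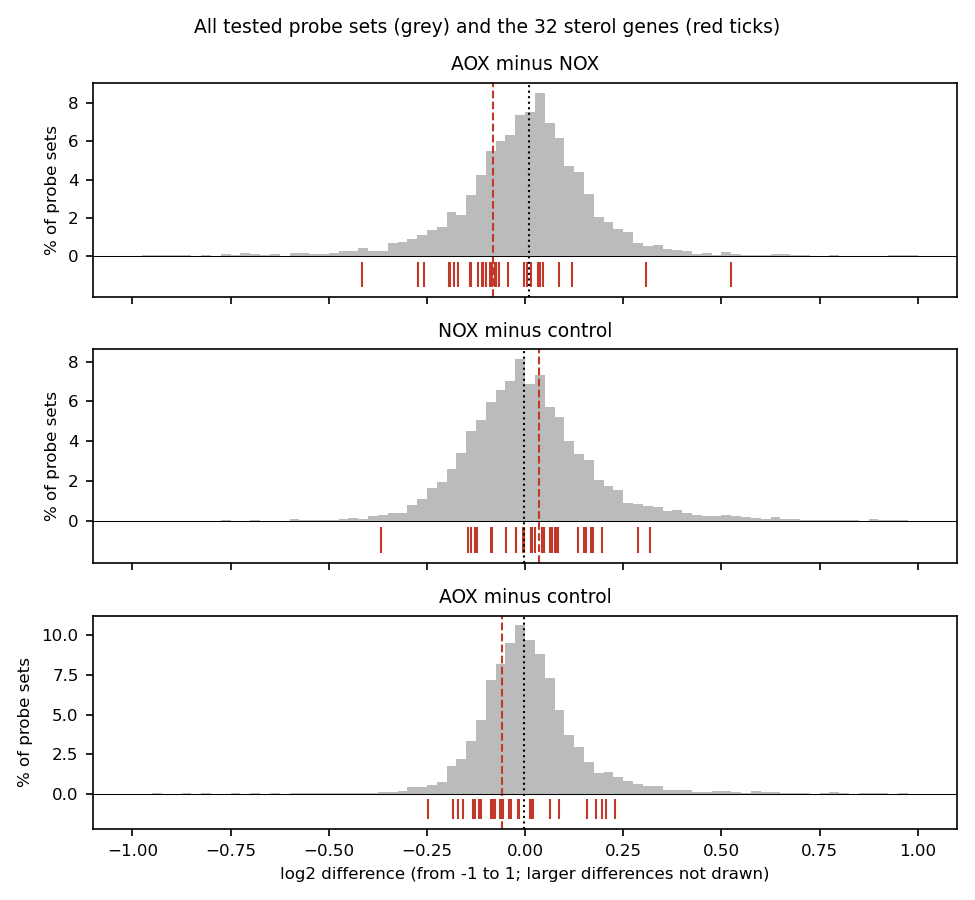
Histograms of the log2 differences of all 5498 tested probe sets (grey, percent of probe sets per bin) with the 32 sterol genes as red ticks, for AOX minus NOX, NOX minus control and AOX minus control. The dashed line is the median of the sterol genes (-0.08, 0.03 and -0.06) and the dotted line that of all probe sets.

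The 9 genes of the mevalonate steps did not pass the test in any comparison. Their median log2 difference was -0.04 in AOX against control, 0.02 in NOX against control and -0.07 between AOX and NOX. ERG10, the acetoacetyl-CoA thiolase that opens the pathway, had intensities of 4033 and 3723 in AOX and 3739 and 4148 in NOX, against 4269 and 4247 in control. The AOX and the NOX arrays were all below both control arrays. Its log2 difference was -0.16 in AOX (SE 0.05, limma adjusted p = 0.249) and -0.08 in NOX (SE 0.05, adjusted p = 0.383). ERG8, the phosphomevalonate kinase, and MVD1, the mevalonate diphosphate decarboxylase, were likewise below control on all 4 oxidase arrays, at -0.13 and -0.12 in AOX and at -0.15 and -0.05 in NOX. ERG13, the HMG-CoA synthase, was at -0.02 in AOX and -0.14 in NOX, and ERG12, the mevalonate kinase, at -0.04 and 0.05. IDI1, the isopentenyl diphosphate isomerase, was at -0.02 and 0.08, and ERG20, the farnesyl diphosphate synthase, at 0.09 and 0.04.

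HMG1 and HMG2 encode the HMG-CoA reductases, the main control point of the pathway, HMG1 being known as the major isozyme in air. HMG1 had 2359.7 and 2133 in AOX and 2268 and 2775 in NOX, against 2311 and 2348 in control. The AOX arrays lay on either side of control, and the NOX arrays spread more widely than those of the other strains. The log2 difference between AOX and NOX was -0.19 (95% interval -0.39 to 0.01, limma adjusted p = 0.237). It was -0.29 without NOX replicate 1 and -0.09 without NOX replicate 2. HMG2 had 571 and 549 in AOX and 474 and 643 in NOX, against 549.7 and 544 in control. Its NOX arrays differed by 0.38 on the normalized log2 scale, the largest gap between replicates of a strain among the 32 genes, and enclosed all other arrays. The AOX minus NOX difference of HMG2 was 0.19 without NOX replicate 2 and -0.18 without NOX replicate 1.

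From squalene synthesis on, 8 genes encode steps that use no oxygen. ERG9 is the squalene synthase, ERG7 the lanosterol synthase, ERG24 and ERG4 sterol reductases, ERG26 and ERG27 the decarboxylating dehydrogenase and the ketoreductase of demethylation, ERG6 the sterol methyltransferase and ERG2 the sterol isomerase. In AOX all 8 had negative log2 differences from control, between -0.18 (ERG7) and -0.04 (ERG27), with a median of -0.07, and 7 lay below control on both arrays, as did 29.4% of all probe sets. In NOX 4 were positive and 4 negative, between -0.12 (ERG27) and 0.08 (ERG7), with a median of 0.01. None passed the test against control. The 2 NOX arrays of ERG27, at 1128 and 1416, differed more than the strains did, with 1381 and 1345 in AOX and 1387 and 1409 in control. In NOX against control, ERG27 differed by -0.25 without NOX replicate 2 and by 0.001 without NOX replicate 1.

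ERG7 was the gene of these 8 that passed between AOX and NOX. It (YHR072W) closes oxidised squalene into lanosterol. Its intensities were 1237 and 1170.5 in AOX and 1334 and 1491 in NOX, against 1372 and 1378 in control. The AOX arrays were the lowest of the 6. On the log2 scale it averaged 10.24 ± 0.04 in AOX, 10.50 ± 0.06 in NOX and 10.43 ± 0.01 in control (SD, n = 2 each). The AOX minus NOX difference was -0.26 (SE 0.05, a fold of 0.836; limma adjusted p = 0.0431). The differences from control were -0.18 in AOX (adjusted p = 0.198) and 0.08 in NOX (adjusted p = 0.444). The call between AOX and NOX held under 7 of the 16 alternatives, which are not all separate checks. Those that ended it included leaving out either control replicate or either AOX replicate. The deposited values (adjusted p = 0.127) and both median scalings (0.0582 and 0.0561) ended it too.

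Oxygen is used by 5 of the enzymes: the squalene epoxidase ERG1, the P450 enzymes ERG11 and ERG5, which carry heme, and the methyl oxidase ERG25 and the desaturase ERG3, which carry non-heme iron. In NOX 4 of these 5 were above both control arrays, as were 27% of all probe sets, with log2 differences of 0.13 for ERG1, 0.15 for ERG11, 0.20 for ERG25 and 0.17 for ERG3, while ERG5 was at -0.01. None passed the limma test, with adjusted p between 0.11 for ERG25 and 0.956 for ERG5. In AOX they split: ERG25 was at 0.23 and ERG3 at 0.06, both above control on each array, ERG11 at 0.01, and ERG1 and ERG5 at -0.06 and -0.08, both below control on each array. The median over the 5 genes on each array, relative to the control mean, was -0.03 and 0.04 in AOX and 0.12 and 0.15 in NOX.

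ERG25 had the same direction in both oxidase strains. Its intensities were 4607 and 4621 in AOX and 4386 and 4424 in NOX, against 3867 and 3912 in control. All 4 oxidase arrays lay above both control arrays. In deposited intensity the replicates of each strain differed less than the strains did. On the normalized log2 scale the NOX arrays, at 12.17 and 12.08, overlapped the AOX arrays, at 12.15 and 12.17. The log2 difference from control was 0.23 in AOX (SE 0.05, a fold of 1.17; limma adjusted p = 0.0947) and 0.20 in NOX (SE 0.05, adjusted p = 0.11). Neither passed. In AOX it passed with a variance trend and robust prior (adjusted p = 0.0412) and when only the AOX and control arrays were fitted (0.0293). In NOX the difference was 0.15 without NOX replicate 1 and 0.24 without NOX replicate 2. The AOX minus NOX difference was 0.03 (95% interval -0.09 to 0.16).

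ERG3, the desaturase, had 2835 and 2718 in AOX and 2668 and 3162 in NOX, against 2645 and 2642 in control. ERG11, the lanosterol demethylase and target of azole drugs, had 4168 and 4269.9 in AOX and 4494 and 4651 in NOX, against 4103 and 4168 in control. Its AOX minus NOX difference was -0.14 (95% interval -0.26 to -0.01, limma adjusted p = 0.194). ERG1 had 2239 and 2113 in AOX and 2327 and 2527 in NOX, against 2260.5 and 2304 in control. It was the oxygen-using enzyme nearest to a call between AOX and NOX, at -0.19 (95% interval -0.31 to -0.08, adjusted p = 0.0613). The difference was -0.21 without NOX replicate 1 and -0.18 without NOX replicate 2. ERG5, a later desaturase, had 2814 and 2813 in AOX and 2775 and 2957 in NOX, against 2945 and 3025 in control. The strains differed there by at most 0.08 on the log2 scale.

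The electron donors had differences of opposite sign between AOX and NOX, and 1 of the 2 passed. CYB5 (YNL111C), cytochrome b5, a small heme protein that passes electrons to sterol and lipid oxidation steps, had 1809 and 1833 in AOX and 2159 and 2082 in NOX, against 2180.2 and 2172 in control. The AOX arrays were below all others, and NOX lay close to control. CYB5 averaged 10.83 ± 0.03 in AOX, 11.10 ± 0.09 in NOX and 11.07 ± 0.01 in control on the log2 scale (SD, n = 2 each). Compared with NOX, CYB5 was lower in AOX, at -0.27 (SE 0.06, a fold of 0.827; limma adjusted p = 0.0475). The difference from control was -0.25 in AOX (SE 0.06, adjusted p = 0.114, and 0.0276 when only the AOX and control arrays were fitted) and 0.03 in NOX (adjusted p = 0.827). The call between AOX and NOX held under 5 of the 16 alternatives. It ended without either control replicate (adjusted p = 0.179 each), without NOX replicate 1 (0.0521) and without AOX replicate 1 or 2 (0.233 and 0.179).

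NCP1, the NADPH-dependent reductase that feeds the P450 enzymes and ERG1, had 1493 and 1596 in AOX and 1132 and 1327 in NOX, against 1347 and 1387 in control. The AOX arrays were above all others and the NOX arrays below all others. The AOX minus NOX difference was 0.31 (95% interval 0.13 to 0.49) and did not pass (limma adjusted p = 0.0623). It passed when scaled by the S. cerevisiae median (0.0409). The difference was 0.23 without NOX replicate 1 and 0.38 without NOX replicate 2. The differences from control were 0.18 in AOX (adjusted p = 0.36) and -0.13 in NOX (adjusted p = 0.357).

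**Figure D3:**
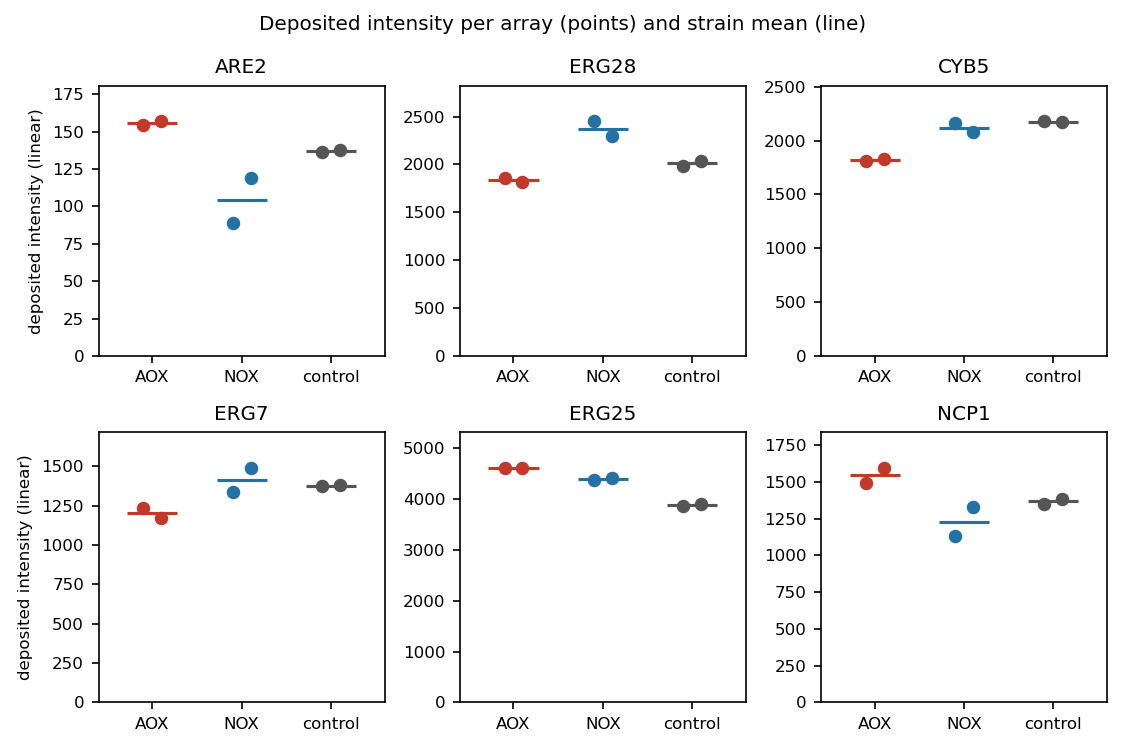
Deposited intensities (linear scale from 0) of ARE2, ERG28, CYB5, ERG7, ERG25 and NCP1 on each array (points) with the mean of each strain (line), for AOX, NOX and control. ARE2 was lowest and ERG28 highest on the NOX arrays, CYB5 and ERG7 were lowest on the AOX arrays, and ERG25 was lowest on the control arrays.

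ERG28 (YER044C) encodes a membrane scaffold that holds the demethylation enzymes together. Its intensities were 1858 and 1819 in AOX and 2452 and 2297 in NOX, against 1983 and 2040.0 in control. The NOX arrays were the highest and the AOX arrays the lowest, with no overlap. It averaged 10.84 ± 0.00 in AOX, 11.25 ± 0.12 in NOX and 10.97 ± 0.02 in control on the log2 scale (SD, n = 2 each). Compared with NOX, ERG28 was lower in AOX, at -0.41 (SE 0.07, a fold of 0.75; limma adjusted p = 0.0200). The differences from control were -0.13 in AOX (adjusted p = 0.502) and 0.29 in NOX (adjusted p = 0.0874). The NOX difference was 0.20 without NOX replicate 1 and 0.37 without NOX replicate 2. Without either control replicate the adjusted p between AOX and NOX was 0.0784, and without AOX replicate 1 or 2 it was 0.128 and 0.133. ERG29, a membrane protein linked to the ERG25 methyl oxidase, had 695 and 779 in AOX and 759 and 670.4 in NOX, against 647 and 631 in control. Both oxidase strains were above control, at log2 differences of 0.20 and 0.17, and neither passed (adjusted p = 0.445 and 0.37). The AOX value was 0.12 without AOX replicate 2, and the NOX value was 0.05 without NOX replicate 1 and 0.29 without NOX replicate 2.

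Of the esterification enzymes, ARE2 passed between AOX and NOX and ARE1 did not, and the difference between the genes was not tested. They transfer fatty acids to sterols for storage, and ARE2 is known as the major isozyme in air. ARE2 (YNR019W) had 154 and 157 in AOX and 88.6 and 119 in NOX, against 136 and 138 in control. The AOX arrays were the highest and the NOX arrays the lowest, with no overlap. It averaged 7.43 ± 0.01 in AOX, 6.90 ± 0.16 in NOX and 7.27 ± 0.00 in control on the log2 scale (SD, n = 2 each). ARE2 was higher in AOX than in NOX by 0.53 (SE 0.08, a fold of 1.44; limma adjusted p = 0.0159), the largest difference between them among the 32 genes. The differences from control were 0.16 in AOX (adjusted p = 0.475) and -0.37 in NOX (adjusted p = 0.0738).

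The ARE2 call between AOX and NOX ended without either control replicate (limma adjusted p = 0.0597 each), without AOX replicate 1 or 2 (0.108 and 0.124) and on the deposited values (0.0510). The AOX minus NOX difference was 0.41 without NOX replicate 1 and 0.64 without NOX replicate 2. Against control in NOX, ARE2 differed by -0.25 without NOX replicate 1 and by -0.48 without NOX replicate 2. ARE1 had 285 and 252 in AOX and 233 and 304 in NOX, against 267 and 263 in control, and the strains overlapped. Its AOX minus NOX difference was -0.00 with a 95% interval of -0.26 to 0.26.

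**Figure D4:**
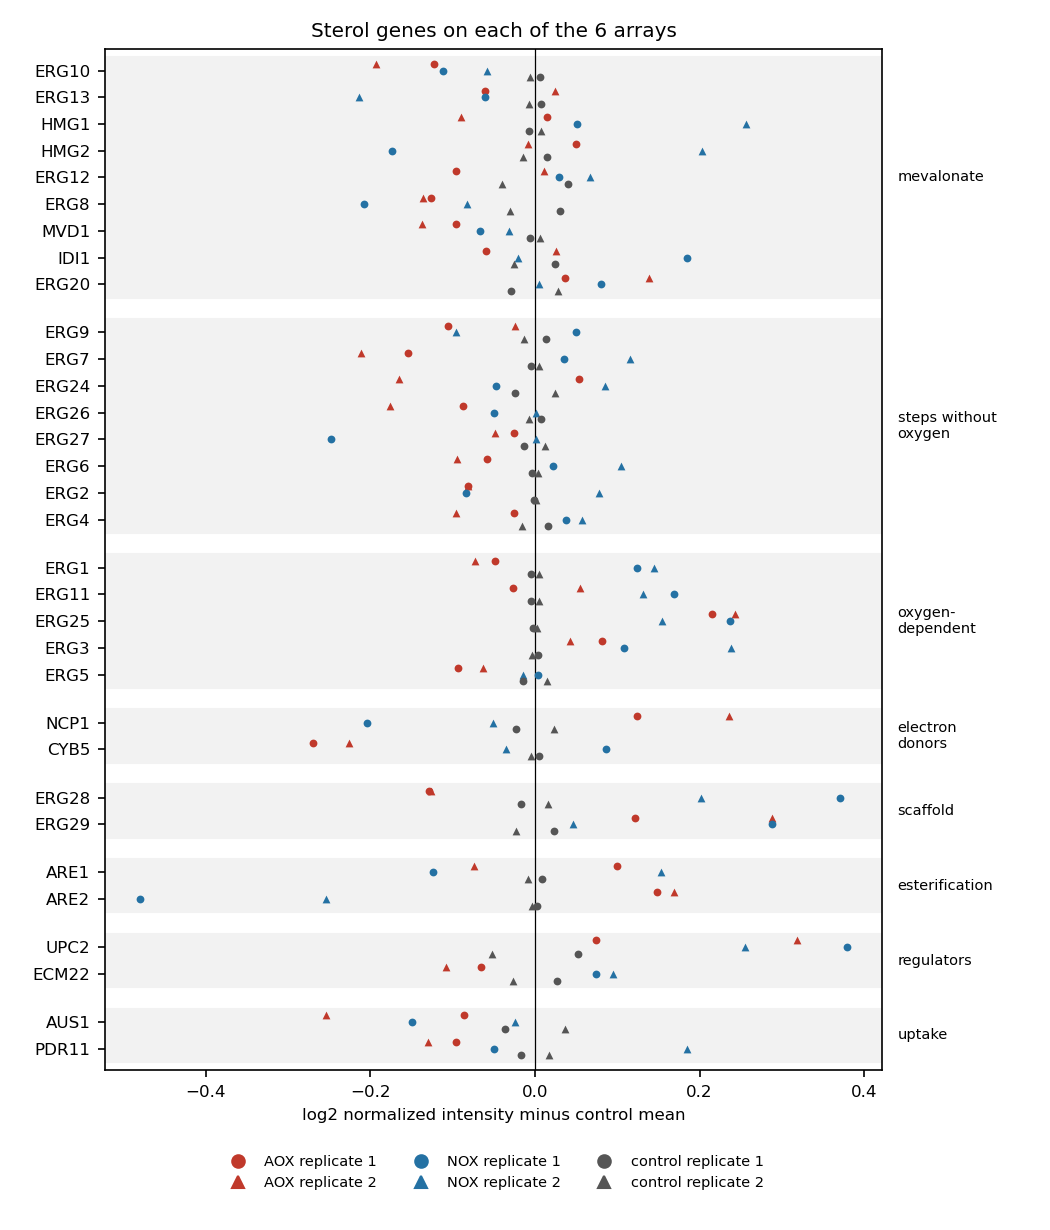
Log2 normalized intensity of each of the 32 genes minus its mean on the control arrays, for each array (circles, replicate 1; triangles, replicate 2) of AOX, NOX and control. The control replicates lie close together, ARE2 has its lowest values on both NOX arrays, CYB5 has its lowest values on both AOX arrays, and ERG25 is above control on all 4 oxidase arrays.

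The sterol regulators did not pass in any comparison. UPC2 was dim, with 54.4 and 60.2 in AOX and 57.1 and 59.4 in NOX, against 51.9 and 48.7 in control. All 4 oxidase arrays lay above both control arrays. The log2 difference was 0.20 in AOX (limma adjusted p = 0.468) and 0.32 in NOX (SE 0.10, adjusted p = 0.146). On the deposited values without normalization the NOX difference was 0.16, so its size depended on the scaling. The AOX difference was 0.32 without AOX replicate 1 and 0.07 without AOX replicate 2. ECM22 had 376 and 365 in AOX and 405 and 431 in NOX, against 398 and 388 in control. Its AOX arrays were below control and its NOX arrays above it, with log2 differences of -0.09 and 0.08, and the AOX minus NOX difference was -0.17 (95% interval -0.29 to -0.05, adjusted p = 0.106).

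AUS1 and PDR11 encode ATP-driven transporters that import sterols when synthesis is blocked. AUS1 had 367 and 323 in AOX and 338 and 389.8 in NOX, against 375 and 402 in control. PDR11 had 157 and 152 in AOX and 159 and 201 in NOX, against 168 and 172 in control. Both had their lowest mean in AOX, whose arrays lay below control at log2 differences of -0.17 (limma adjusted p = 0.429) and -0.11 (adjusted p = 0.645), while the NOX arrays overlapped control. Between AOX and NOX, PDR11 differed by -0.18 (limma adjusted p = 0.271). That difference was -0.30 without NOX replicate 1 and -0.06 without NOX replicate 2.

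Sterol handling outside the pathway was read from a list of 58 names on sterol transport, export, ester cleavage, regulation and isoprenoid branches, of which 55 were measured. In AOX against control 2 were called higher and none lower, where 2.55% and 1.04% of all probe sets were. In NOX against control none was called higher and 1 lower, where 2.8% and 0.909% of all were. Between AOX and NOX 6 were higher and 2 lower, where 4% and 4.38% of all were. The median log2 difference of the 55 genes was 0.04, -0.01 and 0.05 in these comparisons. TMT1, a methyltransferase for trans-aconitate, stood on the list although no sterol role is known for it. It was higher in AOX, by 0.95 against control (limma adjusted p = 0.00121) and by 0.78 against NOX (adjusted p = 0.0014). Without it, 54 genes remained, with 1 called higher in AOX against control, and 5 higher and 2 lower between AOX and NOX.

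SCS7, an oxygen-using hydroxylase of sphingolipid fatty acids with a cytochrome b5 domain, had 2226 and 2020.1 in AOX and 1168 and 1454 in NOX, against 1891 and 1869 in control. The NOX arrays were the lowest, and SCS7 fell by 0.50 in NOX against control (SE 0.09, limma adjusted p = 0.0492, and 0.325 and 0.353 without control replicates 1 and 2, and 0.117 without either AOX replicate). It was higher in AOX than in NOX by 0.66 (adjusted p = 0.0117). SUT1, a transcription factor of sterol uptake, had 246 and 245 in AOX and 351 and 452 in NOX, against 300.2 and 307 in control. The NOX arrays were the highest and the AOX arrays the lowest, and the AOX minus NOX difference was -0.68 (adjusted p = 0.0101). MGA2, a membrane-bound factor of lipid and low-oxygen gene expression, was also lower in AOX than in NOX, by -0.39 (adjusted p = 0.027, 0.0768 without either control replicate, 0.0503 without NOX replicate 1, and 0.118 and 0.169 without AOX replicates 1 and 2). For SCS7 and SUT1 the call held without either control replicate and ended without AOX replicate 1 (0.102 and 0.0893) or AOX replicate 2 (0.0721 and 0.0885).

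The PRY genes encode related proteins, of which those of PRY1 and PRY2 are secreted and bind and export sterols. PRY2 had 2392 and 2399 in AOX and 1825 and 1862 in NOX, against 2014 and 2037 in control. PRY3 had 915 and 963 in AOX and 721 and 757 in NOX, against 868 and 871 in control. Both were highest in AOX and lowest in NOX, and higher in AOX than in NOX by 0.32 and 0.33 (limma adjusted p = 0.018 and 0.0159). PRY1, named after its values were seen, was higher in AOX by 0.39 against control (adjusted p = 0.0277) and by 0.33 against NOX (adjusted p = 0.0293). The PRY1, PRY2 and PRY3 calls ended without either control replicate, with adjusted p between 0.0904 and 0.304, and without AOX replicate 1 or 2, with adjusted p between 0.0588 and 0.14. The PRY1 call against NOX also ended without NOX replicate 1 (0.0561). DPP1, a lipid phosphatase of the vacuole that was also named after its values were seen, was higher in AOX than in NOX by 0.28 (adjusted p = 0.0446). That call ended when any array other than NOX replicate 2 was left out, and the difference was then between 0.23 and 0.34.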

How the data were processed

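Total RNA of 6 chemostat samples, 2 per strain, was labelled with biotin and hybridised, per the labels. The deposited values are probe set intensities on a linear scale, as their range shows, and the program and scaling the authors used are not given in the sources used here. Of 10928 probe sets, 7245 were named by the platform annotation, with symbols updated through Entrez identifiers to the R64 table, and 5498 matched an S. cerevisiae gene and were tested. Another 1746 belonged to another organism and gave the background. No coordinates or sequences are printed, since none came with a named build.

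Values were transformed as log2(intensity + 16) and quantile normalized over the whole table, because array medians differed by up to 0.204. A linear model per probe set was fitted to all 6 arrays (limma 3.58.1, R 4.3.3; 3 residual and 2.77 prior degrees of freedom). The spread of a probe set was taken as equal in all strains. P-values were adjusted across the 5498 probe sets by Benjamini-Hochberg, with 0.05 as threshold. Each gene was read from its brightest probe set. The procedure was also run on simulated data with independent arrays and the same spread in all strains. The spread between replicates here differed among the strains, so no conclusion is drawn from that run. The members, role groups and other sterol list were chosen with earlier results of these data known. All members are named, with array values for called members and a fixed set of others. From the other list up to 6 called genes with the smallest adjusted p are named, and PRY1 and DPP1 were added after their values were seen. Alternatives were 3 other scalings, 2 pseudocounts, a filter on dim probe sets, a variance trend, only the arrays compared, a replicate block, the mean over probe sets, and each array left out. A lone remaining array was assumed to vary like the other strains.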

Additional observations from a re-analysis of the deposited data

Results flagged for a closer look

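In the direct test of AOX minus NOX the control mean cancels out of the difference, but the control's replicate spread enters the test. For 4 genes this test passed in the main fit. These were 12.5% of the listed genes, where 8.38% of all probe sets were called. None of the 4 passed against control in either strain in the main fit. CYB5 passed in AOX against control when only those arrays were fitted (limma adjusted p = 0.0276). The log2 AOX minus NOX difference was 0.53 for ARE2 (limma adjusted p = 0.0159), -0.41 for ERG28 (0.0200), -0.27 for CYB5 (0.0475) and -0.26 for ERG7 (0.0431). On the normalized scale the AOX and NOX arrays of ARE2, ERG28 and ERG7 lay on opposite sides of both control arrays. For CYB5 the NOX arrays overlapped control. In deposited intensity NOX replicate 1 of ERG7, at 1334, lay below both control arrays, at 1372 and 1378. The calls depended on the fit and the scaling. When only the AOX and NOX arrays were fitted, none of the 4 passed (limma adjusted p between 0.0597 and 0.179). ERG7 and CYB5 also did not pass on the deposited values or under either median scaling, and ARE2 did not pass on the deposited values.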

How the results depend on the processing

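With 16 alternatives, no called gene reversed. The number of the 32 genes called in AOX against control was 1 with the variance trend and robust prior and 2 with only the arrays compared, and in NOX against control it stayed at 0 except without NOX replicates. Leaving out single arrays gave 0 to 5 in NOX, 0 to 2 in AOX and 0 to 8 between AOX and NOX. Between AOX and NOX it was 1 on the deposited values (ERG28), 2 under median scaling on other-organism probe sets, 0 with only the arrays compared and 1 with the replicate block (ARE2), against 4. Of the calls there, 1 was higher and 3 lower, while the deposited values gave 0 higher and 1 lower, scaling by the S. cerevisiae median 2 and 1, and scaling by the other-organism median 1 and 1. Over all probe sets the count was 204 in NOX, 197 in AOX and 461 between them. It was 111, 364 and 202 with only the arrays compared and 79, 124 and 237 with the replicate block. Leaving out single arrays gave 14 to 1453, 52 to 364 and 158 to 1467. The differences between replicates 1 and 2 correlated across probe sets at -0.21 for AOX and control, 0.12 for NOX and control and -0.60 for AOX and NOX. The numbers thus gave no common pairing, but the AOX and NOX replicate differences were related in the opposite order. The tests treated all arrays as independent, and the source of that relation was not tested. The mean over probe sets left every member's value as it was, since each has 1 probe set. Leaving out a control array left the AOX minus NOX values as they were and took the control's replicate spread and a degree of freedom out of the fit. The cause of the other shifts was not tested.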
